A study of Mus musculus with 9 samples.

Results

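The Hippo pathway effectors described here are 10 genes, chosen by symbol from the 23329 rows of the islet count table, and all 10 were found. They are the coactivator genes Yap1 and Wwtr1 (which encodes TAZ), the DNA-binding partner genes Tead1, Tead2 and Tead3, the kinase genes Lats1 and Lats2, the scaffold gene Amotl2, and Ctgf and Cyr61, which encode secreted matricellular proteins. RefSeq now lists the last pair as Ccn2 and Ccn1. Polyadenylated RNA of pancreatic islets from male mice was sequenced in 9 libraries. The labels give 4 libraries, titled as controls, the genotype Pdx1+/-. The remaining 5 carry the title of mutants and the genotype Pdx1A4. The sources used here give neither the meaning of that name nor the age of the mice. No treatment is named for either group. Whether libraries of a group came from different mice is not stated, so the p-values speak only of spread among libraries, and this may be technical.

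In the Hippo pathway, a cascade of kinases ends in LATS1 and LATS2, which phosphorylate YAP and TAZ. Phosphorylated YAP and TAZ are held in the cytoplasm or degraded. When the cascade is quiet they enter the nucleus, bind TEAD proteins, which carry no strong activation domain of their own, and switch on genes that include Ctgf, Cyr61, Amotl2 and Lats2. The last pair feeds back on the pathway. In the pancreas YAP is known to be present in progenitors, ducts and stellate cells and to be switched off as endocrine cells form, so that mature beta cells hold little of it.

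Libraries held 6092010 to 7375376 counts in controls and 7186462 to 9163253 in mutants. Values are given as CPM, which are counts relative to a library total that TMM scaling had corrected for composition. Pdx1, the labelled gene, had less RNA in each of the 5 mutants than in any control, 12.9 ± 6.91 CPM (SD, n = 5) against 29.5 ± 5.54 (SD, n = 4), and fell by 1.18 on the log2 scale (edgeR quasi-likelihood adjusted p = 0.0461). Leaving out control 1, 2, 3 or 4 or mutant 1 or 3 ended this call (highest edgeR adjusted p = 0.113). As a check of the labelled tissue, the 10 beta cell markers, Ins1 and Ins2 among them, summed to 108130 to 179609 CPM in controls and 698 to 61940 CPM in mutants, and Nkx6-1 had 0 counts in mutant 2. A set of 7 islet hormone genes took 16.9% to 21.0% of counts in controls and 0.0691% to 7.99% in mutants. Mutants 2 and 3 stood apart with the lowest hormone shares, 0.0691% and 1.21%, so log2 fold changes of the tested members are given without them too. Pdx1 was still called lower without mutants 2 and 3 (log2 fold change -0.78, edgeR adjusted p = 0.0268).

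Yap1 and Wwtr1, the coactivators, both rose in mutants. Yap1 (GRCm38 chromosome 9, positions 7931999 to 8004638) had 1.78, 2.78, 3.86 and 2.46 CPM in controls 1 to 4 and 8.84, 11.9, 15.2, 7.90 and 13.0 CPM in mutants 1 to 5. The lowest mutant library, mutant 4, lay above the highest control, control 3. The means were 2.72 ± 0.870 CPM (SD, n = 4) and 11.3 ± 2.99 CPM (SD, n = 5), a 4.14-fold difference (log2 fold change 2.05, standard error 0.29, edgeR quasi-likelihood adjusted p = 0.00252). Wwtr1 (chromosome 3, positions 57455644 to 57575910) had 3.01, 7.02, 7.61 and 8.72 CPM in the controls and 17.1, 14.4, 17.7, 15.8 and 19.7 CPM in the mutants. Every mutant library was above every control, and the mutants spread little around their mean of 16.9 ± 1.98 CPM (SD, n = 5), against 6.59 ± 2.49 CPM in controls (SD, n = 4). Wwtr1 was 2.56-fold higher (log2 fold change 1.36, standard error 0.28, edgeR adjusted p = 0.00780). Both calls held in each of the 9 fits that left out 1 library and without mutants 2 and 3, where the log2 fold changes were 1.80 for Yap1 and 1.35 for Wwtr1 (edgeR adjusted p = 0.00915 and 0.0204).

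**Figure D1:**
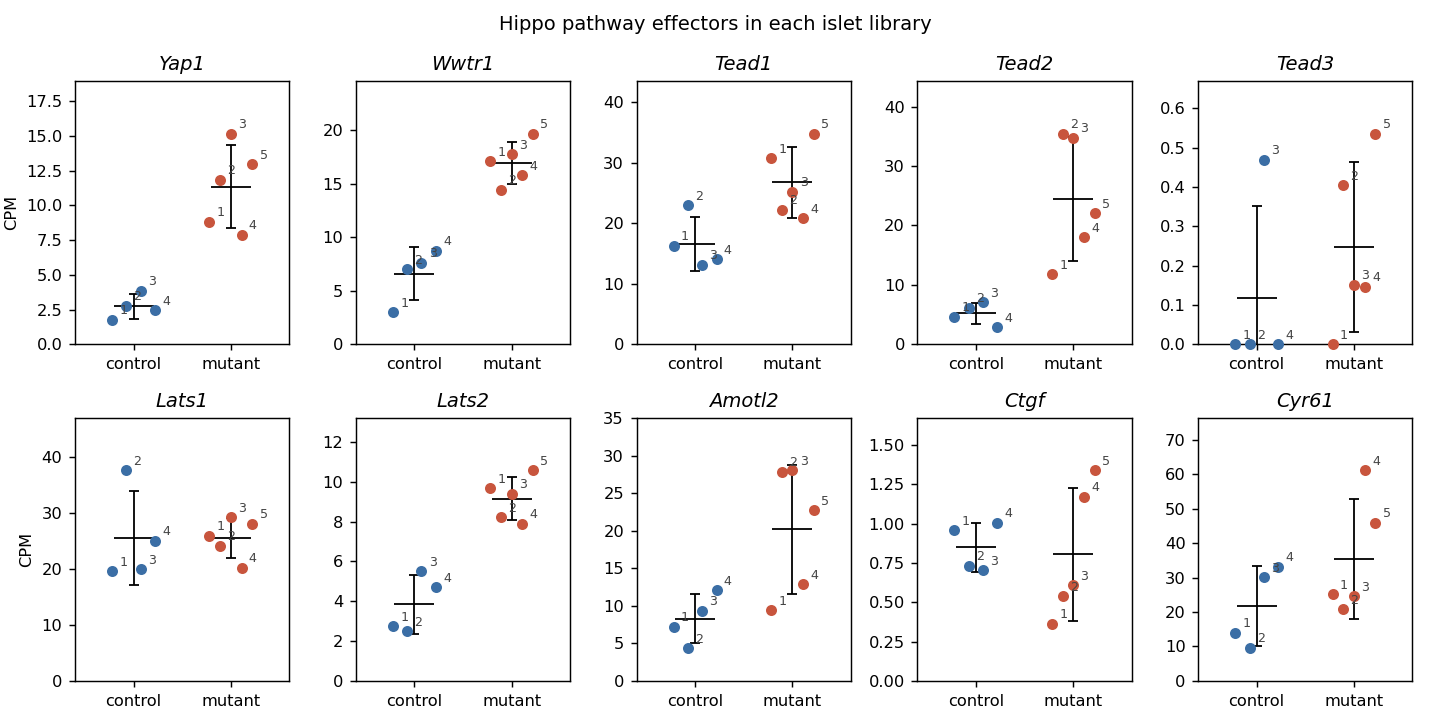
CPM of each of the 10 genes (vertical axes, each starting at 0 with its own range) in the 4 control and 5 mutant libraries, numbered by replicate, with the mean as a horizontal bar and the SD as error bars. Yap1, Wwtr1, Tead2 and Lats2 show no overlap between groups, whereas Lats1 and Ctgf have means of 25.5 and 25.5 CPM and of 0.849 and 0.803 CPM in controls and mutants.

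Of the 10 genes, 6 rose in mutants (Yap1, Wwtr1, Tead1, Tead2, Lats2 and Amotl2), none fell, 2 did not pass the test (Lats1 and Cyr61) and 2 had too few counts to be tested (Tead3 and Ctgf). Over all 12402 genes tested, edgeR called 20.6% higher and 11.8% lower (32.4% in either direction), against which these counts are to be read. The median log2 fold change was 1.26 over the 8 tested members and 0.04 over all genes tested. Yap1 had the lowest count of any tested member, 13 in control 1, so passing the filter on low counts did not depend on the mutants. DESeq2 and limma-voom called the same 6 genes, where DESeq2 called 20.3% of genes higher and 20.6% lower (40.9% in either direction) and limma-voom 24.3% higher and 18.5% lower (42.8%). Without mutants 2 and 3, Yap1, Wwtr1, Tead2 and Lats2 passed, against 10.8% of genes called higher and 9.78% lower. In 4 members (Yap1, Wwtr1, Tead2 and Lats2) every mutant library was above every control, a separation seen in 18.5% of the genes tested, with 14.7% separated downward. In bulk tissue, a change in the share of cells that express a gene and a change in RNA per cell cannot be told apart.

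The promoters of the members are shown for a sequence feature that several of them share. TEAD proteins bind the core GGAATG, which was searched on both strands (its reverse complement is CATTCC) in the 250 bases before the start of each RefSeq transcript (GRCm38.p6). Windows were found for 8 of the 10 members, all but Tead1 and Ctgf, and 5 of these 8 held the core at least once: Yap1, Wwtr1, Tead3, Amotl2 and Cyr61. The core occurred in 14.4% of the 27025 genes with such a window, and in 4 of 12 genes of a YAP and TAZ target signature (Ankrd1, Axl, Crim1 and Ptpn14). Tead2, Lats1 and Lats2 had no match in theirs. Members with a match were thus among those that rose, that did not pass and that were not tested, and a match is a description of the letters, not a site of binding. The windows of Yap1 (chr9:8004597-8004846, minus strand), Wwtr1 (chr3:57575911-57576160, minus strand) and Cyr61 (chr3:145649986-145650235, minus strand) follow, with 30 bases around the match of Amotl2 (match at chr9:102717739-102717744, shown on the gene's strand, plus), each 5′ to 3′ with the core in capitals.
Yap1: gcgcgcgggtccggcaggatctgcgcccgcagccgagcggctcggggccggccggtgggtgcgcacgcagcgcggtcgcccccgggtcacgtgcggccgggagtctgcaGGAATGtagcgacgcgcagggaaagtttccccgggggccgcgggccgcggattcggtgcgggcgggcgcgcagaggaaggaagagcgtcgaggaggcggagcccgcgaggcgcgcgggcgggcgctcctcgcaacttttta
Wwtr1: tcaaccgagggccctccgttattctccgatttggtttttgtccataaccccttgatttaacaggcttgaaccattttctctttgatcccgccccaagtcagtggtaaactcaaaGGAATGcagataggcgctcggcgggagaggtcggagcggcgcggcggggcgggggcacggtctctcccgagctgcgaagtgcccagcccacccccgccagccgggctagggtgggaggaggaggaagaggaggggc
Cyr61: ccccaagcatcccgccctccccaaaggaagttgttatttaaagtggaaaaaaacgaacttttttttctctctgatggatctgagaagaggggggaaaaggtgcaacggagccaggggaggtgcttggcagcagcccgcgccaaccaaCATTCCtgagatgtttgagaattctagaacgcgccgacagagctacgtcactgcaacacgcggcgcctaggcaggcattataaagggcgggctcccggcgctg
Amotl2: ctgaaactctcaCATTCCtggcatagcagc

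In Yap1 the core began 141 bases before the start and in Wwtr1 136 bases before it, both on the strand of the gene. In Cyr61 it began 103 bases and in Amotl2 65 bases before the start, both on the opposite strand. The Amotl2 window lies inside the gene's RefSeq span, and its match falls in an exon of Amotl2 annotated in GENCODE M21. In the Yap1 window 17 bases fall in such exons, and the end nearest the start lies inside the gene's RefSeq span.

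Among the TEAD genes, which give YAP and TAZ their hold on DNA, Tead2 and Tead1 rose, while Tead3 was barely detected. Tead2 (chromosome 7, positions 45215792 to 45233468) had 4.65, 6.15, 7.03 and 2.91 CPM in the controls and 11.7, 35.5, 34.7, 18.0 and 22.1 CPM in the mutants. Mutants 2 and 3 had the highest values, and mutant 1, the lowest mutant, was still above control 3, the highest control. Tead2 was 4.70-fold higher, at 24.4 ± 10.4 CPM (SD, n = 5) against 5.18 ± 1.81 CPM (SD, n = 4; log2 fold change 2.23, standard error 0.37, edgeR adjusted p = 0.00414). It passed in every fit that left out 1 library. Without mutants 2 and 3 the log2 fold change was 1.68 (edgeR adjusted p = 0.0107).

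Tead1 (chromosome 7, positions 112679356 to 112906784) had 16.3, 23.0, 13.1 and 14.1 CPM in the controls and 30.8, 22.2, 25.2, 20.8 and 34.8 CPM in the mutants. Control 2 lay above mutants 2 and 4, so the groups overlapped. Tead1 was 1.61-fold higher in mutants (log2 fold change 0.69, standard error 0.22, edgeR adjusted p = 0.0388). Its call was lost without any of controls 1, 3 and 4 or mutants 1, 3 and 5 (highest edgeR adjusted p = 0.0951) and without mutants 2 and 3 together (log2 fold change 0.75, edgeR adjusted p = 0.0601). Scaling by relative log expression, which shifted the median of all genes from 0.04 to -0.06, also ended it (log2 fold change 0.59, edgeR adjusted p = 0.0584). Tead3 had 0 counts in controls 1, 2 and 4 and in mutant 1, and at most 4 counts in any library. A count of 0 allows up to 0.335 to 0.439 CPM in these libraries (3 counts). The pooled level of Tead3 was 0.126 CPM in controls (95% exact Poisson interval 0.0345 to 0.324) and 0.246 CPM in mutants (0.113 to 0.467), intervals that cover counting error only.

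The kinase genes behaved unequally. Lats1 (chromosome 10, positions 7681200 to 7716461) had 19.5, 37.6, 19.9 and 25.0 CPM in the controls and 25.9, 24.1, 29.3, 20.2 and 28.1 CPM in the mutants. Control 2 was the highest of all 9 libraries, and mutants 1, 3 and 5 lay above the other 3 controls. Lats1 had a log2 fold change of 0.00098 (standard error 0.22, edgeR adjusted p = 0.997). Lats2 (chromosome 14, positions 57689662 to 57746212) had 2.73, 2.49, 5.50 and 4.69 CPM in the controls and 9.69, 8.22, 9.41, 7.90 and 10.6 CPM in the mutants. All 5 mutants were above control 3, the highest control, and they spanned a narrow range. Lats2 was 2.36-fold higher, at 9.16 ± 1.09 CPM (SD, n = 5) against 3.86 ± 1.48 CPM (SD, n = 4; log2 fold change 1.24, standard error 0.27, edgeR adjusted p = 0.0108). The call held without each library in turn and without mutants 2 and 3 (log2 fold change 1.21, edgeR adjusted p = 0.0359).

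Since both kinase genes were counted in the same library, their ratio is free of the scaling. The log2 ratio of Lats2 to Lats1 counts was -2.81, -3.88, -1.84 and -2.40 in the controls and -1.41, -1.55, -1.63, -1.35 and -1.40 in the mutants. Every mutant lay above every control, and the mutants varied less (SD 0.116, n = 5) than the controls (SD 0.860, n = 4). The mean difference of 1.26 was a 2.40-fold shift towards Lats2 (exact two-sided permutation p = 0.00794, the smallest these libraries can give, adjusted p = 0.0317 over 4 ratios). Without control 2 it was 0.88. The adjusted p exceeded the threshold without control 1 or 4 (0.0714 for both) and without any single mutant (0.0571), where 2 ratios at the smallest possible p cannot go below 0.0571.

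**Figure D2:**
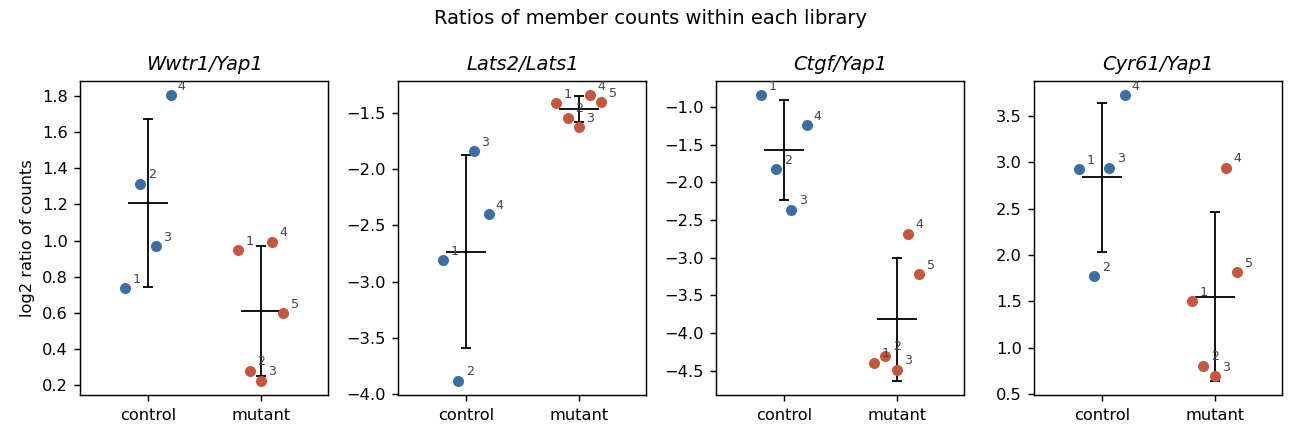
Log2 ratios of the counts of paired members within each library (vertical axes, 0.5 added to each count) in 4 control and 5 mutant libraries, numbered by replicate, with mean and SD. Lats2/Lats1 is higher and Ctgf/Yap1 lower in every mutant than in any control, and the other ratios overlap.

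Amotl2 and the secreted products are the members known as transcriptional targets of YAP and TAZ beside Lats2. Amotl2 rose, Cyr61 did not pass and Ctgf had too few counts for the test. Amotl2 (chromosome 9, positions 102717091 to 102733418) encodes an angiomotin family protein that binds YAP at cell junctions. It had 7.25, 4.39, 9.37 and 12.1 CPM in the controls and 9.44, 27.9, 28.1, 12.9 and 22.7 CPM in the mutants. Mutants 2 and 3 were highest, and mutant 1 lay below control 4. Amotl2 was 2.43-fold higher (log2 fold change 1.28, standard error 0.38, edgeR adjusted p = 0.0331). The call was lost without any of controls 1, 2 and 3 or mutants 2, 3 and 5 (highest edgeR adjusted p = 0.0933), and it failed without both mutants 2 and 3 (log2 fold change 0.78, edgeR adjusted p = 0.181).

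Cyr61 (chromosome 3, positions 145646971 to 145649985) had 13.9, 9.66, 30.1 and 33.2 CPM in the controls and 25.2, 20.8, 24.6, 61.2 and 45.9 CPM in the mutants. Only mutants 4 and 5 were above the highest control, control 4. The difference did not pass (log2 fold change 0.70, standard error 0.43, edgeR adjusted p = 0.230). Without mutant 4 it was 0.35, and without control 2 it was 0.37 (edgeR adjusted p = 0.538 and 0.514). Ctgf (chromosome 10, positions 24595442 to 24598683) had 7, 5, 6 and 9 counts in the controls and 3, 4, 4, 8 and 10 in the mutants. Its pooled level was 0.853 CPM in controls (95% exact Poisson interval 0.562 to 1.24) and 0.793 CPM in mutants (0.531 to 1.14). In a fit with no filter on low counts, the estimate for Ctgf was -0.16 on the log2 scale (standard error 0.53, edgeR adjusted p = 0.848). A difference in Ctgf was not detectable at this depth.

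Relative to Yap1 counts, Ctgf was lower in mutants, and Cyr61 did not pass the threshold. Yap1, the denominator, was itself 4.14-fold higher in mutants. Ctgf had 3 to 10 counts per library, with means of 0.849 CPM in controls and 0.803 CPM in mutants. Its ratio to Yap1 is therefore not a result separate from the rise of Yap1. The log2 ratio of Ctgf to Yap1 counts was -0.85, -1.83, -2.37 and -1.24 in the controls and -4.39, -4.30, -4.48, -2.68 and -3.22 in the mutants. Each mutant was below each control, with a mean difference of -2.24 (exact two-sided permutation p = 0.0159, adjusted p = 0.0317), or 4.73-fold. The adjusted p was 0.0714 without control 1 or 4 and 0.0571 without any single mutant. The ratio of Cyr61 to Yap1 differed by -1.29 (exact permutation p = 0.0714, adjusted p = 0.0714), with mutants 4 and 5 inside the range of the controls. For Wwtr1 to Yap1 the difference was -0.60 (exact permutation p = 0.0714, adjusted p = 0.0714), so a larger change of Yap1 than of Wwtr1 was not shown.

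**Figure D3:**
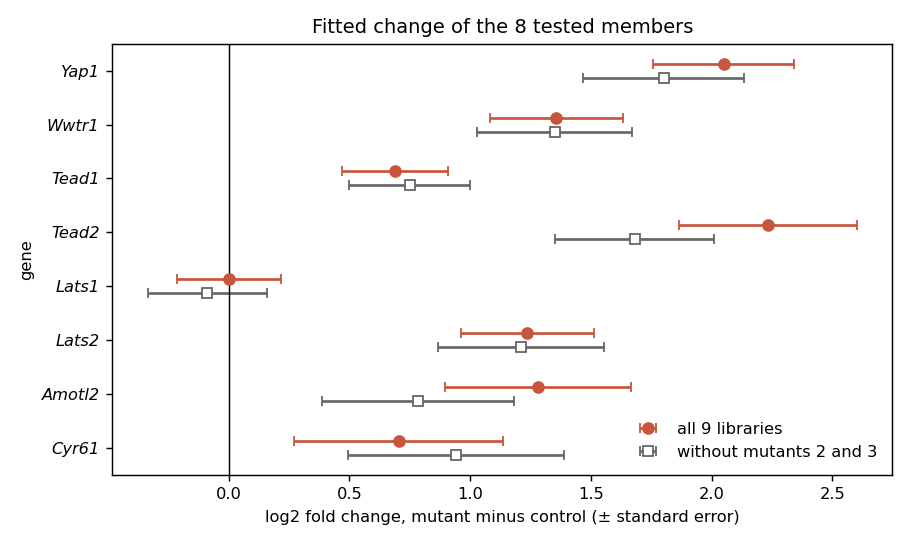
Log2 fold change of the 8 tested members, mutant minus control, with its standard error, from all 9 libraries (filled circles) and without mutants 2 and 3 (open squares). Tead2 and Yap1 lie farthest from 0 at 2.23 and 2.05, Lats1 lies at 0.00098, and Amotl2 moves from 1.28 to 0.78 without the pair of libraries.

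Levels of different genes can be compared only per length of transcript, for which CPM was divided by the length of all annotated exons (GENCODE M21, in kilobases). The annotation used for counting is not given, so these levels are approximate. In controls, Cyr61 was highest at 10.8 ± 5.78 CPM per kilobase, then Lats1 at 3.50 ± 1.16 (SD, n = 4), whose ranges overlapped. Wwtr1 (1.38 ± 0.521), Amotl2 (1.31 ± 0.517), Tead1 (1.22 ± 0.327) and Tead2 (1.08 ± 0.377 CPM per kilobase) formed a group in which each overlapped the next. Lats2 at 0.553 ± 0.212 overlapped Tead2, and Ctgf (0.297 ± 0.0539 CPM per kilobase) lay below Lats2 without overlap. Yap1 (0.294 ± 0.0940 CPM per kilobase) overlapped Ctgf, and its highest control, control 3 at 0.417, lay above Lats2 in controls 1 and 2. Tead3 was lowest at 0.0174 ± 0.0349. In mutants, Cyr61 stayed highest at 17.6 ± 8.61 CPM per kilobase (SD, n = 5). Tead2 came next at 5.10 ± 2.18 and overlapped Wwtr1 (3.55 ± 0.415), Lats1 (3.50 ± 0.491) and Amotl2 (3.21 ± 1.37), whereas Yap1 at 1.23 ± 0.323 CPM per kilobase lay beside Lats2 at 1.31 ± 0.157. Wwtr1 was thus above Yap1 per length in all 9 libraries.

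The rest of the pathway was followed in 3 lists. Among 24 upstream kinases, scaffolds and their regulators, 21 were tested, 5 rose and 0 fell in edgeR, against 20.6% and 11.8% of all genes tested. The share of 23.8% higher is near this background. The median log2 fold change of the list was 0.08. Wwc1, which encodes the scaffold KIBRA, rose most clearly, from 4.22 ± 1.35 CPM (SD, n = 4) to 14.8 ± 4.40 CPM (SD, n = 5; log2 fold change 1.80, standard error 0.30, edgeR adjusted p = 0.00387). The protocadherin gene Fat1 rose by 0.98 on the log2 scale, Stk3, which encodes a Hippo kinase that activates LATS, by 0.81, and its cofactor gene Mob1a by 1.01 (edgeR adjusted p = 0.00959, 0.0120 and 0.0223). In each of these 4 genes, named for their low p, every mutant was above every control. They were the only genes so separated among the 21 tested, where 18.5% of all genes were. In 1 of the 21 every mutant was below every control, as in 14.7% of all genes. The remaining gene that rose, Jub (Ajuba), which restrains LATS, is named after its value was seen (log2 fold change 1.30, edgeR adjusted p = 0.0415). Stk3 and Mob1a did not pass without mutants 2 and 3, and the list's count was 3 without control 1 or 2 or mutant 2.

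Of 22 partners of YAP, TAZ and TEAD, 18 were tested, 5 rose and 0 fell, against 20.6% and 11.8% of all genes tested, a share of 27.8% higher that is near this background. The median log2 fold change was 0.29. The polarity genes Mpp5 and Crb3, whose products sit together at the apical membrane of epithelia, rose by 0.87 and 0.92 (edgeR adjusted p = 0.00383 and 0.00388). Crb3 had 44.5 ± 5.88 CPM in controls (SD, n = 4) and 84.2 ± 12.2 CPM in mutants (SD, n = 5), with no overlap. Ywhag and Ywhaz, which encode adaptor proteins that hold phosphorylated YAP in the cytoplasm, rose by 0.65 and 0.48 (edgeR adjusted p = 0.0251 and 0.0329). The other listed genes of this family went the other way and were not called. Log2 fold changes were -0.06 for Ywhab, -0.26 for Ywhae, -0.25 for Ywhah and -0.41 for Ywhaq. With 1 library left out, Ywhaz passed only without control 2 (highest edgeR adjusted p = 0.102), and Ywhag did not pass without control 1, 2 or 3 or mutant 4 or 5 (highest edgeR adjusted p = 0.0852). The remaining call was Amot, a sister gene of Amotl2 named after its value was seen (log2 fold change 2.03, edgeR adjusted p = 0.0332). Amot had 1, 3, 13 and 15 counts in controls and 16 to 43 in mutants, so it passed the filter on low counts only through the mutants, where it was high, and its call supports nothing further. The list's count was 2 without control 1 or mutant 5, and 3 without control 2 or 3 or mutant 3 or 4. DESeq2 called 2 partner genes lower, and edgeR called 1 lower under relative log expression scaling. Of all 12402 genes tested, DESeq2 called 20.6% lower, and edgeR called 2006 lower under that scaling.

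The target list holds 18 further genes of a published pan-cancer signature of YAP and TAZ activity. In it 16 were tested, 2 rose and 0 fell, with a median log2 fold change of -0.25 and a share of 12.5% higher. Of all genes tested, 20.6% were called higher and 11.8% lower. Ptpn14, a phosphatase gene whose product also restrains YAP, had 1.91, 2.93, 3.04 and 3.58 CPM in controls and 9.20, 13.2, 11.5, 11.4 and 15.3 CPM in mutants. All mutants were above all controls (log2 fold change 2.07, standard error 0.24, edgeR adjusted p = 0.00152), and the call held in every fit that left out 1 library. Myof, which encodes the membrane repair protein myoferlin, rose by 1.34 (edgeR adjusted p = 0.0331). Leaving out control 1 or 2, mutant 2, 3 or 5, or mutants 2 and 3 together ended that call (highest edgeR adjusted p with 1 library left out, 0.0886). Arhgef17 had a log2 fold change of -1.64 and Ccdc80, a matrix protein gene, of -1.14, and neither passed (edgeR adjusted p = 0.0595 and 0.0710). Called lower were 0 of the 16 genes by edgeR with all libraries, 3 by DESeq2 and 5 by limma-voom. DESeq2 called 20.6% of all genes tested lower, and limma-voom 18.5%. With edgeR, 3 target genes were called lower without mutant 1, 2 without mutant 2 and 1 without control 2. Over all genes tested these fits called 1865 of 12198, 1629 of 12284 and 1306 of 12699 lower.

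**Figure D4:**
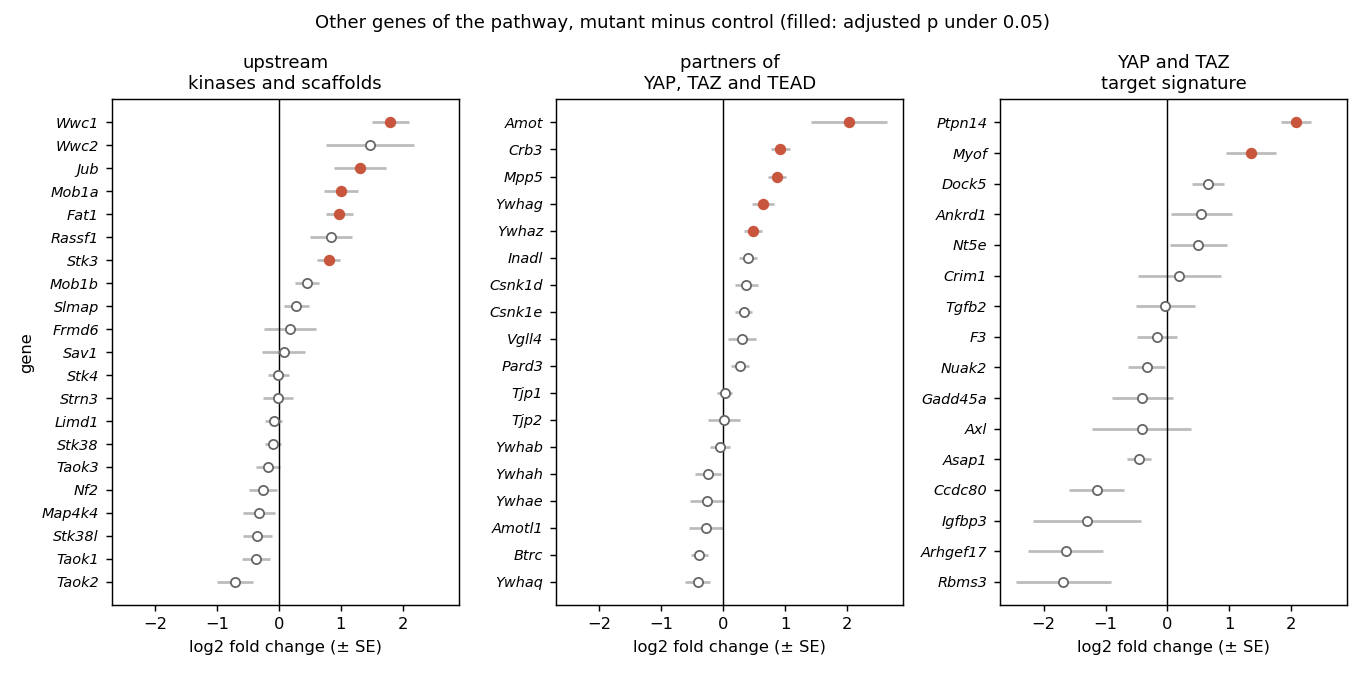
Log2 fold change, mutant minus control, with its standard error, of the tested genes of the 3 pathway lists (filled where the edgeR adjusted p is under 0.05). In the upstream and partner lists 5 genes each are filled, all above 0, and in the target list 2 are filled, while Rbms3, Arhgef17 and Igfbp3 lie lowest.

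The target genes also differed between libraries of the same group, a pattern chosen after the values were seen. Among the 19 tested genes of the signature, with Amotl2, Lats2 and Cyr61 counted in, controls 3 and 4 were both above controls 1 and 2 in 13, against 22.9% of all genes tested. Ankrd1, a nuclear ankyrin repeat gene, had 3.01 and 4.68 CPM in controls 1 and 2 and 19.4 and 18.0 CPM in controls 3 and 4, with 13.7 to 22.7 CPM in the mutants. Myof had 5.19 and 3.22 CPM against 14.6 and 13.6 CPM in the same libraries. Mutants 2 and 3 were both below the other mutants in 8 of the 19 genes (26.6% of all genes), among them Cyr61 and Axl, and both above them in 2, Amotl2 and Crim1 (24.1% of all genes).

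Markers of acinar, ductal and endocrine cells also differed between the groups. Whether they followed the members from library to library was not tested. Summed over 16 acinar markers, levels were 8763 to 12783 CPM in controls and 50500 to 124710 CPM in mutants, and 15 of 16 rose. The 15 ductal markers summed to 4597 to 12718 CPM in controls and 16559 to 28271 CPM in mutants, where 6 of 14 tested genes rose and 2 fell. The 18 endocrine secretory genes summed to 21910 to 27930 CPM in controls and 223 to 12794 CPM in mutants, and edgeR called 6 of 18 lower. All 18 had negative log2 fold changes, from -2.92 to -0.55 (median -1.87). In 17 of them every mutant was below every control, against 14.7% of all genes tested. Group membership accounted for 95.3% of the variance of the acinar score. A fit with that score as a term called 0 of the 8 tested members in edgeR (1, Tead1, at an unadjusted p under 0.05) and 0 genes in all (342 at an unadjusted p under 0.05), so acinar content and genotype cannot be told apart. With the ductal score edgeR called 0 members (5 at an unadjusted p under 0.05), and with the endocrine secretory score it called 1, Yap1 (log2 fold change 1.78, edgeR adjusted p = 0.0350). Of all genes tested, 1.45% were called higher with the ductal score (3169 genes at an unadjusted p under 0.05). The share was 4.08% with the endocrine secretory score (2769 genes at an unadjusted p under 0.05). Group membership accounted for 42.6% of the variance of the ductal score and 49.8% of that of the endocrine secretory score. With the ductal score the log2 fold change of Yap1 was 1.74 (edgeR adjusted p = 0.0553) and that of Wwtr1 0.99 (edgeR adjusted p = 0.120).

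Markers of stellate cells and of endothelium, in which YAP is also known to act, were not called higher in mutants. The 12 stellate and fibroblast markers summed to 148 to 319 CPM in controls and 3.10 to 359 CPM in mutants. Of these, 10 were tested, 0 rose and 2 fell, against 20.6% and 11.8% of all genes tested. Their log2 fold changes ran from -2.55 to 0.47 (median -0.98). In mutant 2 the collagen genes Col1a1, Col1a2 and Col3a1 and the receptor gene Pdgfrb had 0 counts, and the sum of 3.10 CPM was the lowest of all libraries. The 11 endothelial markers summed to 54.7 to 183 CPM in controls and 5.80 to 100.4 CPM in mutants, with Cdh5, Kdr and Flt1 at 0 counts in mutant 2. None of the 9 tested was called by edgeR in either direction, though all had negative log2 fold changes, from -1.85 to -0.11 (median -1.05). In mutant 2, Yap1 was 11.9 CPM and Tead2 35.5 CPM, both above every control. Which cells carried this RNA was not tested.

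**Figure D5:**
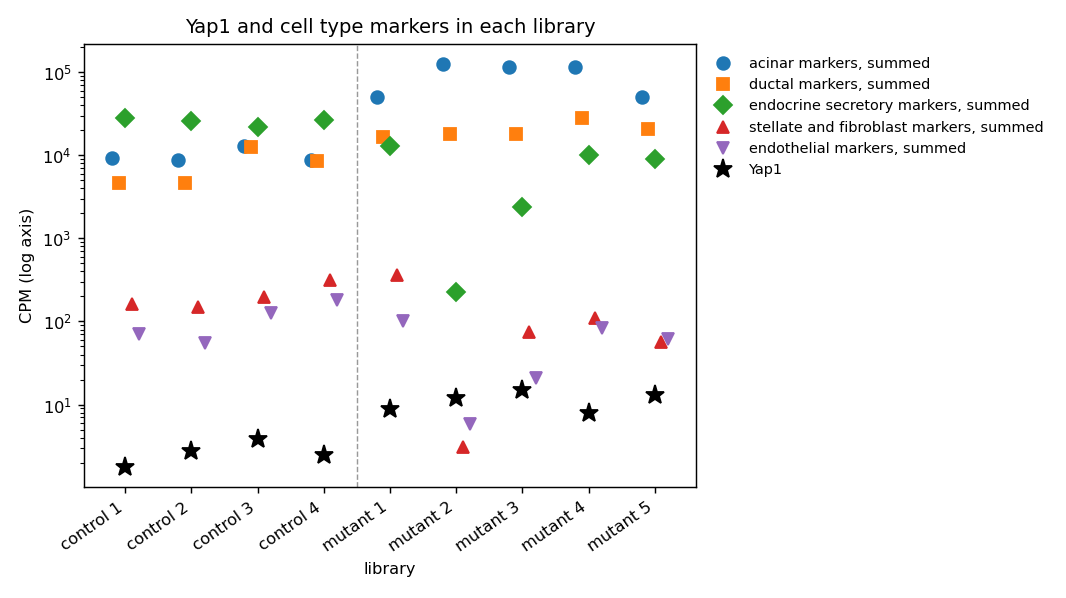
Yap1 (stars) and summed levels of 5 marker lists in each library, in CPM on a log axis, with a dashed line between 4 controls and 5 mutants. Acinar and ductal sums are higher in all mutants, and stellate and endothelial sums are lowest in mutant 2. Yap1 lies between 1.78 and 3.86 CPM in controls and between 7.90 and 15.2 CPM in mutants.

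The genes whose profile over the 9 libraries was most like that of Yap1 were sought among the 12402 genes tested, by the root mean square difference of log2 CPM after each gene's own mean was removed. For Yap1 they were Tnip3 (0.217), Clic6 (0.217), Mospd1 (0.240), Ppic (0.242) and Cdk18 (0.249), where the median gene differed by 1.07. For Wwtr1 they were Lrrfip1 (0.190), Cav2 (0.239), Sh3d19 (0.240), Slc25a24 (0.248) and Mal2 (0.255), with a median of 0.878 over all genes. Among the members, Tead2 was closest to Yap1, at 0.405 and in place 157 of the ranking, and Lats2 closest to Wwtr1, at 0.332 and in place 27. Yap1 and Wwtr1 differed from each other by 0.444. The likeness includes the difference between groups, which all of these genes share.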

How the data were processed

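Whole-number counts per gene symbol were deposited by the authors without normalization for 4 control and 5 mutant libraries. Per the submitters' processing notes, the project used the build mm10 and, among other tools, STAR, RSEM and DESeq2. The step that made these counts, its annotation and its use of strand were not stated in any source used here, so reads of overlapping or closely related genes may be shared. Members and lists were chosen with earlier results of these data known. Symbols were matched to RefSeq (GRCm38.p6), which placed 23079 of 23329, and all 198 listed symbols were found, 2 under another symbol. Genes passing filterByExpr (12402) were tested by edgeR 4.0.16 (R 4.3.3, TMM scaling, quasi-likelihood test, Benjamini-Hochberg threshold 0.05, two-sided). Standard errors came from the fit's information matrix and posterior dispersion. Marker scores were mean log2 CPM (prior count 2). Ratios of counts (0.5 added) were compared by exact permutation. No molecular identifiers are named, so intervals cover counting error only. Named genes were the members, up to 4 genes of lowest p per list, 5 genes of most like profile for Yap1 and for Wwtr1, and Pdx1. DESeq2 1.42.0, limma-voom 3.58.1, other scalings and filters, covariates, a replicate block and left-out libraries were alternatives. No libraries of a group were copies within sampling noise. The script was tested on simulated data.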

Additional observations from a re-analysis of the deposited data

How the results depend on the processing

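The count of members called higher stayed between 4 and 6 in the 9 fits that left out 1 library, with 0 lower, and Yap1, Wwtr1, Tead2 and Lats2 passed in all 9. It was 5 under relative log expression scaling and with no low-count filter, 6 under DESeq2, limma-voom, the stricter filter and scaling without 7 hormone genes, and 4 without mutants 2 and 3. With a covariate it was 0 (acinar), 1 (endocrine secretory) and 0 (ductal), and with the acinar score the log2 fold changes of Tead2, Mpp5, Crb3 and Pdx1 turned to -0.52, -0.024, -0.040 and 0.32, and those of Arhgef17, Ccdc80 and Cyr61, which pass in neither fit, to 1.33, 2.92 and -0.35. Cyr61 was -0.04 with the ductal score and Arhgef17 0.11 with the endocrine secretory score. The cause of these changes was not tested. Replicate numbers did not pair the libraries, since same-numbered libraries correlated by 0.05, -0.02, 0.18 and -0.05 in their deviations and none correlated best with its own number. With the replicate block 4 members were called higher (Tead1 and Amotl2 were lost), 2 upstream, 3 partner and 1 target genes. Upstream genes called higher were 0 with each of the 3 covariates, 2 without mutants 2 and 3, and 3 to 6 with 1 library left out, and DESeq2 called 1 lower. Partner genes called higher were 3 with no filter, 0 (acinar), 1 (endocrine secretory), 0 (ductal), 3 without mutants 2 and 3, and 2 to 4 with 1 library left out. Called lower were 1 under relative log expression scaling, 1 with hormone genes left out of scaling, 2 by DESeq2, 1 by limma-voom and 0 to 1 with 1 library left out. Target genes called higher were 0 (acinar), 1 (endocrine secretory), 1 (ductal) and 1 to 2 with 1 library left out. Called lower were 1 under relative log expression scaling, 3 by DESeq2, 5 by limma-voom, 1 without mutants 2 and 3, and 0 to 3 with 1 library left out. Of all 12402 genes, 2006 were called lower under relative log expression scaling and 1752 with hormone genes left out of scaling. DESeq2 called 20.6% lower and limma-voom 18.5%, and edgeR 9.78% without mutants 2 and 3. With 1 library left out, 699 to 1865 genes were called lower. Of all genes tested, edgeR called 17.4% higher under relative log expression scaling and 18.6% with hormone genes left out of scaling. The share was 13.4% with the replicate block, 10.8% without mutants 2 and 3, and 12.9% to 22.2% with 1 library left out. With no low-count filter 2099 of 17564 genes were called higher. The acinar, endocrine secretory and ductal scores left 0, 506 and 180 of 12402. DESeq2 called 20.3% higher and limma-voom 24.3%. Differences in log2 ratio ranged from 0.88 to 1.56 for Lats2/Lats1 and from -2.53 to -2.0 for Ctgf/Yap1 with 1 library left out. Without mutants 2 and 3 they were 1.34 and -1.86 (adjusted exact p = 0.114 for both), where 4 against 3 libraries allow no exact p under 0.0286. An offset of 2 counts changed no call of the 4 ratios. Depth limits Ctgf and Tead3, which had at most 10 and 4 counts in a library. The Dixon test was run on the tested members, the genes of lowest p per list and the ratios, and flagged 0 of 48 groups. Tead3, Ctgf, Pdx1 and the genes of most like profile were not put to it.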
